A study of Mus musculus with 12 samples.

Results

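A set of 39 mouse genes for fatty acid synthesis and lipid storage was described across the livers of 3 groups of mice, array by array. The genes were picked by symbol, and each was read from the probe sets that the array's annotation pairs with exactly 1 gene. Of the 39, 38 had such a probe set, among 18193 genes in all, and Lipc was not analysed here. Where a gene had several, the brightest on average across the 12 arrays stood for it.

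Liver RNA of mice at 3 months of age, all labelled C57Bl/6, was hybridised to Affymetrix GeneChip Mouse 430 2.0 arrays. The groups are 4 wildtype arrays with no agent, 4 Atp7b-/- arrays with no agent and 4 arrays of Zn treated Atp7b-/- mice. The zinc-treated group has no wild type counterpart, so an effect of zinc on a normal liver was not measured. Per the labels the zinc went to 4 mutant mice, while for the other 8 arrays no label says that each is a separate animal, so the p-values may measure technical spread in part. The labels name no zinc dose, duration, sex or allele, and the sample titles give no feeding state or time of killing.

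Hepatocytes make fatty acids from citrate. Acly splits it into acetyl-CoA, Acaca carboxylates that to malonyl-CoA, and Fasn builds palmitate, which elongases and desaturases then modify. Gpam and Agpat2 place acyl chains on glycerol phosphate, the lipins remove the phosphate, and the Dgat enzymes add the last chain. The triglyceride is either kept in droplets coated by perilipins or loaded by Mttp onto lipoproteins for export. Atp7b is the copper pump that hepatocytes use to pass copper into bile, and fat accumulation in hepatocytes is a known early feature of its loss in Wilson disease.

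Levels are log2 intensities, so a change of 1 is a doubling on the scale of the arrays. A gene was called changed at an adjusted p under 0.05, and values after ± are SDs over the 4 arrays of a group. The level of Atp7b itself was lower in all 8 mutant arrays than in every wild type array (-1.49 without and -1.77 with zinc), although no source here says whether its probes fall in the disrupted exons. The 6 measured hepatocyte markers had array means of 14.31 to 14.33 in wild type, 14.20 to 14.28 in the untreated mutants and 14.25 to 14.30 with zinc, and 1 of them, Hnf4a, was called without zinc (-0.25, adjusted p = 0.0233). RNA degradation raises the signal at the 3' end of a transcript over that at its 5' end. For actin and Gapdh this gap was 0.79 to 0.88 in the untreated mutants, above all 8 other arrays (wild type 0.62 to 0.78, zinc-treated 0.54 to 0.74), so wherever the untreated mutants are compared it cannot be told apart from the group. Replicate 1 of untreated Atp7b-/- had the lowest median correlation with its group (0.991, others 0.993 to 0.996). Zinc-treated replicates 2 and 3 carried pancreatic acinar transcripts, with list means of 9.31 and 6.89 against 5.48 to 5.80 in the other 10 arrays. Because whole liver was used, fewer cells of a type and less RNA per cell cannot be told apart.

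In untreated Atp7b-/- liver the uptake genes Lpl and Cd36 changed most among the lipid genes. Lpl and Cd36 each rose 3.87-fold, the phosphatidate phosphatase Lpin1 rose 3.07-fold, and the droplet coat gene Plin2 and the lipolysis inhibitor G0s2 fell, while Fasn, Srebf1, Scd1, Gpam, Dgat2 and Mttp did not pass the test. In all, 7 of 38 lipid genes rose and 6 fell, which is 34.2% called where 24.6% of all 18193 genes were called (14.3% up and 10.3% down). Dim genes, with a highest group mean under the median of all genes, count in that background. Without them 13 of 33 lipid genes and 3620 of 9097 genes in all were called, which are nearly equal shares. Array values of both groups were fully separate for 13 of the 38 (34.2%), where 26.4% of all genes were. Of all called genes 58.2% were higher as deposited and 48.7% after quantile normalization, and the lipid genes split 7 to 6 under both. The median change was 0.02 for the lipid genes and -0.05 for all genes, and the median absolute change was 0.31 and 0.17. At least 1 log2 unit was reached by 7 lipid genes (18.4%) and 3.7% of all genes. The number down rested on single arrays more than the number up. It was 7 up and 2 down without Atp7b-/- replicate 4, 8 up and 3 down without wild type replicate 1 or 4, and 8 up and 4 down without Atp7b-/- replicate 1.

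With zinc, 6 lipid genes differed from wild type, 2 higher and 4 lower (15.8%, where 7.62% of all genes were called, 4.89% up and 2.73% down), and 9 did not overlap (23.7%, background 14.3%). Against untreated Atp7b-/-, 2 were higher and 2 lower with zinc (10.5%, background 6.54%, 1.7% up and 4.84% down), and 6 did not overlap (15.8%, background 15.3%). These backgrounds include dim genes. Of the 9097 genes left without them, 1504 were called against wild type and 1373 against untreated Atp7b-/-, larger shares than these backgrounds. Among the 33 lipid genes left, no call was lost. Scd2 was then called as well against wild type, and Elovl3 and Fabp4 against untreated Atp7b-/-. The median changes of the lipid genes were -0.02 against wild type and -0.07 against untreated Atp7b-/-, beside -0.02 and 0.01 over all genes. Without zinc-treated replicates 2 and 3, 1 lipid gene was called in each of these comparisons, Lpl, out of 699 and 614 genes in all. Single arrays also moved these counts. The count against untreated Atp7b-/- was 2 without zinc-treated replicate 1, without zinc-treated replicate 2 or without Atp7b-/- replicate 4, and 1 without zinc-treated replicate 4. The count against wild type was 3 without wild type replicate 1, 2 or 3, and 2 without zinc-treated replicate 2. In total 15 of the 38 genes were called in at least 1 comparison (39.5%, where 26.6% of all genes, dim ones included, were) and 23 in none. Each pair of comparisons shares a group of arrays, so their values are given side by side only. Of all called genes, 26.0% were higher with zinc than without as deposited and 39.8% after quantile normalization, and the lipid genes split 2 to 2 and 3 to 2.

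**Figure D1:**
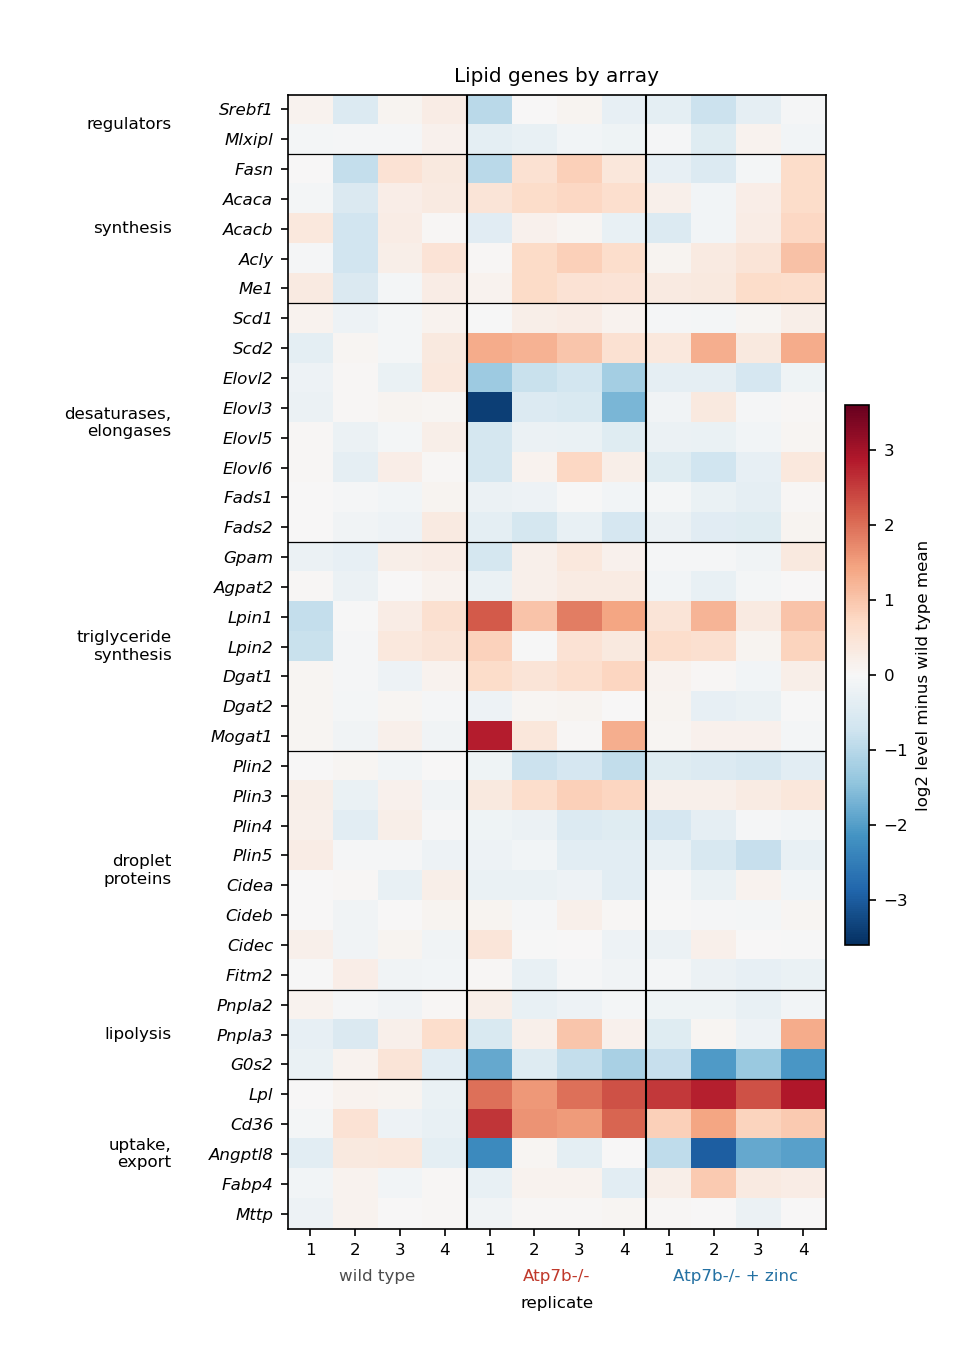
Log2 level of each of the 38 lipid genes in each of the 12 arrays, as the difference from the wild type mean of that gene (colour, log2 units), with genes in rows by role and arrays in columns by group and replicate. Lpl and Cd36 are above their wild type mean (red) in all 8 mutant arrays, and G0s2 is below it (blue) in the same 8. G0s2 is faint in untreated replicate 2 (10.27 against a wild type mean of 10.73). The synthesis genes are mostly pale, with stronger single arrays such as Fasn in untreated replicate 1 (10.46 against 11.42).

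Of the genes that changed, 4 are shown with the 300 bases around a transcription start, because Cd36 and Lpin1 rose and Plin2 and G0s2 fell in untreated Atp7b-/- liver. Each run covers 250 bases before and 50 after a start listed by RefSeq (GRCm38.p6), 5′ to 3′ on the gene's strand. The windows are chr5:17835847-17836146, minus strand (Cd36), chr12:16610917-16611216, minus strand (Lpin1), chr4:86670010-86670309, minus strand (Plin2) and chr1:193273139-193273438, minus strand (G0s2). The starts of Cd36, Lpin1 and Plin2 lie inside the annotated span of the gene, so other starts upstream are possible, and positions below are counted from the starts used. Capitals mark matches to 5 motifs searched on both strands: the E-box CACGTG bound by the lipogenic factor encoded by Mlxipl and others, the CCAAT box CCAAT, the sterol regulatory element TCACNCCAC, and direct repeats of AGGNCA with a spacer of 1 base or of 4 bases, which nuclear receptors bind.
Cd36: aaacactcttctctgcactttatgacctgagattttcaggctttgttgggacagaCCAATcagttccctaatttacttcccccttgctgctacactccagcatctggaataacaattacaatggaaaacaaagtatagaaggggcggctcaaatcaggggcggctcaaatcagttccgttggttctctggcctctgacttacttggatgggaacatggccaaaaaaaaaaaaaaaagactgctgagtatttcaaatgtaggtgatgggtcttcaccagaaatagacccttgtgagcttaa
Lpin1: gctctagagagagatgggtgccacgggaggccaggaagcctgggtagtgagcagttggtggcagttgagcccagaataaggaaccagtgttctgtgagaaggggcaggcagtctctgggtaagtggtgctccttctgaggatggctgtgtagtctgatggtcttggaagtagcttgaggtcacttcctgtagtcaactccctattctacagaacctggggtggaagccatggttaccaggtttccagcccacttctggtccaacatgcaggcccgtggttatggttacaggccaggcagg
Plin2: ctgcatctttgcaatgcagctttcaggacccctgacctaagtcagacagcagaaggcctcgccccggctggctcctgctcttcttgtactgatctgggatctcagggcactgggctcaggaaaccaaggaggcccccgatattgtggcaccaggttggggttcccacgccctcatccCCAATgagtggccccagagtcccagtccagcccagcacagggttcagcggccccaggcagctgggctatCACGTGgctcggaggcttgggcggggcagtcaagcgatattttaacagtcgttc
G0s2: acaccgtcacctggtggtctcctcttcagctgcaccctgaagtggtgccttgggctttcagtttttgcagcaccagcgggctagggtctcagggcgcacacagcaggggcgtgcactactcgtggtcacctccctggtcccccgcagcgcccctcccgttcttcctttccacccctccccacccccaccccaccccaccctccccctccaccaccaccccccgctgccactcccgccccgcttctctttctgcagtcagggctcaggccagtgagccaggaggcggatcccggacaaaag
Cd36 holds 1 CCAAT box, which begins at -195 from the start. Plin2 holds a CCAAT box at -73 and an E-box at -4. The windows of Lpin1 and G0s2 hold none of the letters searched. Over all 32851 promoter windows in the table, 37.4% hold CCAAT and 7.15% hold the E-box. Of 39 windows of 29 of the 38 lipid genes measured, 43.6% hold CCAAT and 10.3% the E-box, the latter in Plin2, Elovl5, Mlxipl and Lpin2. The sterol element was in 2.56% of these windows, in Mlxipl alone, and in 1.24% of all, and neither repeat was in any of the 39 (0.381% and 0.253% of all). No overlap between motifs occurred in the printed windows. These are matches of letters and show no binding.

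Lpl encodes lipoprotein lipase, which frees fatty acids from circulating triglyceride and is low in adult hepatocytes. Its log2 level was 9.83, 9.95, 9.92 and 9.60 in the wild type arrays, 11.81, 11.38, 11.82 and 12.11 in the untreated mutants and 12.38, 12.62, 12.12 and 12.70 in the zinc-treated ones. The 3 groups did not overlap, with wild type lowest and zinc-treated highest. Lpl rose by 1.95 (SE 0.15, adjusted p = 9.92e-07) in untreated Atp7b-/- and was 2.63 above wild type with zinc (adjusted p = 1.87e-07), which is 6.19-fold. Its second probe set differed by 2.24 and 3.21. Lpl was the only lipid gene called in the same direction in all 3 comparisons, with a further 0.68 with zinc (adjusted p = 0.0199). That last call was lost without zinc-treated replicates 2 (0.62) or 4 (0.59).

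Adipocytes, macrophages and endothelium are other known sources of Lpl. The adipocyte marker Adipoq was at 3.36, 6.58, 3.42 and 3.31 with zinc, and between 3.17 and 3.56 in the other 8 arrays, less than the lower quartile of any array (4.13 to 4.29). Zinc-treated replicate 4, with the highest Lpl (12.70), had Adipoq near the bottom of the scale, and only replicate 2 stood out. The 4 measured adipocyte markers averaged 6.99 to 7.91 in zinc-treated arrays, beside 7.02 to 7.24 in wild type and 6.77 to 6.91 in the untreated mutants. That mean includes Car3, which hepatocytes also express strongly (mean 14.38 ± 0.06 in wild type) and which was called at -0.56 without zinc and at 0.45 between zinc-treated and untreated. Of 9 macrophage markers 5 fell and 0 rose in untreated Atp7b-/-, where 24.6% of all genes were called, and their array means were 8.56 in Atp7b-/- replicate 1 and 7.51 to 7.75 in the other 3, beside 7.91 to 8.85 in wild type and 7.72 to 8.05 with zinc. Of 8 endothelial markers 1 rose and 2 fell, and their means were 7.13 to 7.35 there, 7.26 to 7.35 in wild type and 7.29 to 7.42 with zinc. The part of these cells in the levels of Lpl and of the other lipid genes was not tested.

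**Figure D2:**
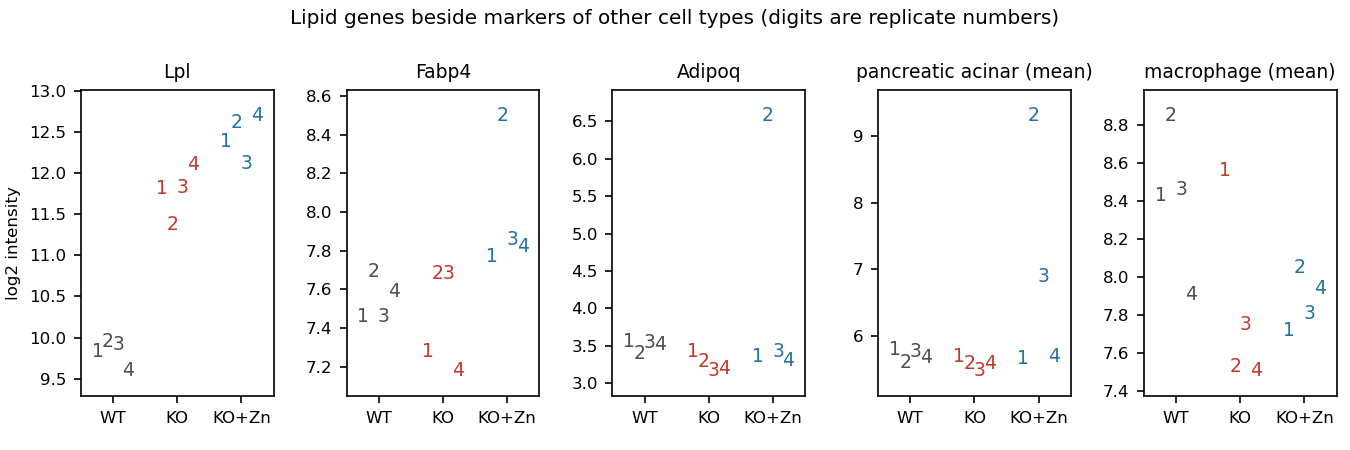
Log2 intensity by array, with digits for replicate numbers, of Lpl, Fabp4, the adipocyte gene Adipoq and the means of 11 pancreatic acinar and 9 macrophage markers. Zinc-treated replicate 2 stands above all other arrays for Fabp4 (8.50), Adipoq (6.58) and the acinar mean (9.31), and Lpl is high in all zinc-treated arrays.

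Cd36 encodes a membrane receptor that takes up long-chain fatty acids. Its log2 level was 7.98, 8.56, 7.85 and 7.77 in the wild type arrays, 10.60, 9.67, 9.57 and 10.13 in the untreated mutants and 8.90, 9.45, 8.85 and 8.99 in the zinc-treated ones. Again the 3 groups did not overlap, but here untreated Atp7b-/- was highest and zinc-treated lay between. Cd36 rose by 1.95 (SE 0.23, adjusted p = 3.52e-05), and its other 2 probe sets differed by 2.16 and 2.06. With zinc it was -0.94 from untreated Atp7b-/- (adjusted p = 0.0248) and still 1.01 above wild type (adjusted p = 0.0146). The difference with zinc from untreated Atp7b-/- lost its call without Atp7b-/- replicates 1 (-0.74) or 4 (-0.90) or zinc-treated replicates 1 (-0.90), 3 (-0.88) or 4 (-0.93), and without both zinc-treated replicates 2 and 3 (-1.05). The difference from wild type lost it without zinc-treated replicate 2 (0.87), and without both zinc-treated replicates 2 and 3 (0.91).

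Angptl8 encodes a secreted protein, induced by feeding, that restrains lipoprotein lipase. Its log2 level was 10.55, 11.29, 11.31 and 10.57 in the wild type arrays, 8.63, 11.01, 10.58 and 10.93 in the untreated mutants and 10.03, 7.97, 9.08 and 8.97 in the zinc-treated ones. The zinc-treated arrays lay below every wild type array, and Atp7b-/- replicate 1 lay apart from the rest of its group. Angptl8 was -1.92 from wild type with zinc (SE 0.50, adjusted p = 0.0311), while untreated Atp7b-/- differed by -0.64 (adjusted p = 0.362). The call was lost without wild type replicates 1 (-2.04), 2 (-1.80) or 3 (-1.79) or zinc-treated replicates 2 (-1.57), 3 (-1.94) or 4 (-1.90), and with an intensity trend and robust variance (-1.92), with the replicate number as a block (-1.92) or without both zinc-treated replicates 2 and 3 (-1.43). The gene lies within the span of Dock6 on chromosome 9, whose own probe set differed by 0.17 and 0.01 from wild type and was not called. Fabp4, a fatty acid carrier of adipocytes and macrophages, was at 7.77, 8.50, 7.86 and 7.82 with zinc and between 7.18 and 7.69 in the other 8 arrays. On this probe set the zinc-treated arrays did not overlap the others, but the difference from untreated Atp7b-/- (0.53, adjusted p = 0.0684) did not pass. The highest array, replicate 2, is the one with Adipoq. On the other, dimmer probe sets of Fabp4 the groups overlapped. Those differed with zinc by 0.26, 0.18 and 0.11 from untreated Atp7b-/- and by 0.46, 0.28 and -0.15 from wild type. Mttp, which loads triglyceride onto lipoproteins, was at 11.50, 11.82, 11.69 and 11.74 in the wild type arrays, 11.56, 11.74, 11.72 and 11.76 in the untreated mutants and 11.72, 11.69, 11.49 and 11.71 in the zinc-treated ones. The groups overlapped, and the 95% interval of its change without zinc was -0.18 to 0.20.

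Srebf1 and Mlxipl are the 2 lipogenic transcription factors among the lipid genes listed here. Neither passed the test in any comparison, where 26.6% of all genes passed in at least 1. Other regulators are on the wider list below, and some of those were called. Without zinc the nuclear receptors Nr1h3 and Rxra were called at 0.32 and -0.59 (adjusted p = 0.0315 and 0.00427). With zinc Nr1h3 was -0.35 from untreated Atp7b-/- (adjusted p = 0.0489), and Rxra did not pass there. Srebf1, which encodes the sterol regulatory element-binding protein that answers to insulin, was at 11.73, 11.11, 11.72 and 11.89 in the wild type arrays, 10.63, 11.63, 11.70 and 11.32 in the untreated mutants and 11.27, 10.85, 11.28 and 11.57 in the zinc-treated ones. The ranges overlapped, and its change was -0.29 without zinc (95% interval -0.79 to 0.21) and -0.37 with it (-0.87 to 0.13). Mlxipl, which encodes the carbohydrate response factor, was at 11.26, 11.31, 11.30 and 11.50 in the wild type arrays, 11.00, 11.06, 11.25 and 11.18 in the untreated mutants and 11.29, 10.89, 11.46 and 11.25 in the zinc-treated ones. Untreated Atp7b-/- arrays all lay below wild type, but the change of -0.22 did not pass (adjusted p = 0.17).

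Among the 5 enzymes of fatty acid synthesis, Acaca alone was called, in untreated Atp7b-/- (1 of 5, where 24.6% of all genes were). With zinc it was 0.25 from wild type and -0.38 from untreated (adjusted p = 0.462 and 0.229). Acaca, the acetyl-CoA carboxylase of the cytosol, was at 9.16, 8.71, 9.45 and 9.53 in the wild type arrays, 9.69, 9.89, 9.97 and 9.83 in the untreated mutants and 9.39, 9.13, 9.46 and 9.88 in the zinc-treated ones. It rose by 0.63 (SE 0.18, adjusted p = 0.0201) with no overlap between untreated Atp7b-/- and wild type. Its dimmer probe set differed by -0.23, and the call was lost without Atp7b-/- replicate 3 (0.59), and when all its probe sets were averaged (0.20). Fasn, the fatty acid synthase, was at 11.44, 10.55, 11.95 and 11.76 in the wild type arrays, 10.46, 11.97, 12.27 and 11.84 in the untreated mutants and 11.13, 10.94, 11.35 and 12.07 in the zinc-treated ones. Its spread within each group was wide, with an SD of 0.80 in untreated Atp7b-/- against a mean change of 0.21 (95% interval -0.62 to 1.04). Acly, the citrate lyase, was at 11.90, 11.26, 12.16 and 12.42 in the wild type arrays, 11.99, 12.64, 12.79 and 12.57 in the untreated mutants and 12.04, 12.26, 12.41 and 12.99 in the zinc-treated ones. Its change of 0.56 missed the threshold (adjusted p = 0.121), and it was called, at 0.60, as the mean of its 6 probe sets. Me1, the malic enzyme that supplies NADPH, differed by 0.45 and 0.50 on the probe set used (adjusted p = 0.0721 and 0.104). The probe set used is of the _a kind, which covers several transcripts of the gene. On its other probe set the differences were 1.09 and 0.76, and both were called when that one stood for the gene. Acacb, the carboxylase whose product restrains fatty acid oxidation, differed by -0.11 and 0.10.

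Of 8 desaturases and elongases, 4 fell and 1 rose without zinc. This was the group with the most calls (62.5%, where 24.6% of all genes were called). The backgrounds in this paragraph include dim genes, while all 8 of these genes lie above the median level. Without dim genes, 3620 of 9097 genes in all were called, a larger share than 24.6%. With zinc none of the 8 was called against wild type, where 7.62% of all genes were, so none of 8 is near the background. Between zinc-treated and untreated Atp7b-/-, 1 of the 8 was called, Elovl2, where 6.54% of all genes were. Elovl2, which lengthens long polyunsaturated chains, was at 12.16, 12.39, 12.09 and 12.73 in the wild type arrays, 11.03, 11.53, 11.68 and 11.13 in the untreated mutants and 12.01, 12.03, 11.74 and 12.18 in the zinc-treated ones. No untreated Atp7b-/- array overlapped either other group. Elovl2 fell by 2-fold (SE 0.17 on the log2 scale, adjusted p = 0.000704) and was 0.65 higher with zinc than without (adjusted p = 0.0336). The zinc call was lost without Atp7b-/- replicates 1 (0.54) or 4 (0.58) or zinc-treated replicates 1 (0.64), 2 (0.63) or 4 (0.59), and without both zinc-treated replicates 2 and 3 (0.75).

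Elovl3, the elongase of saturated and monounsaturated very long chains, was at 12.44, 12.68, 12.75 and 12.71 in the wild type arrays, 9.25, 12.15, 12.10 and 11.00 in the untreated mutants and 12.53, 13.01, 12.62 and 12.69 in the zinc-treated ones. Within untreated Atp7b-/- it spanned almost 3 log2 units, with replicate 1 far below and replicate 4 next. The change of -1.52 (SE 0.47, adjusted p = 0.0304) was -0.89 without replicate 1, over 1.5 times smaller, and still called. It lost its call without wild type replicates 1 (-1.59), 2 (-1.51), 3 (-1.48) or 4 (-1.50) or Atp7b-/- replicate 4 (-1.48), and with an intensity trend and robust variance (-1.52) or with only the 2 groups in the fit (-1.52). With zinc the level lay within 0.06 of wild type, and the difference from untreated Atp7b-/- was 1.58 (adjusted p = 0.0623).

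Elovl5 and Fads2, an elongase and a desaturase of polyunsaturated chains, had smaller falls. Elovl5 was at 13.63, 13.39, 13.52 and 13.81 in the wild type arrays, 12.96, 13.39, 13.35 and 13.14 in the untreated mutants and 13.39, 13.34, 13.50 and 13.66 in the zinc-treated ones. The change was -0.38 (adjusted p = 0.0321), wild type and untreated arrays touched at 13.39, and the call was lost without wild type replicates 1 (-0.36) or 4 (-0.30) or Atp7b-/- replicates 1 (-0.29) or 4 (-0.35), and with only the 2 groups in the fit (-0.38). Fads2 was at 11.15, 11.01, 10.94 and 11.44 in the wild type arrays, 10.77, 10.51, 10.86 and 10.53 in the untreated mutants and 10.92, 10.73, 10.69 and 11.23 in the zinc-treated ones. The change was -0.47 (adjusted p = 0.0245), but its other 2 probe sets differed by -0.09 and 0.12. For Fads2 the call did not hold without wild type replicates 1 (-0.46) or 4 (-0.37) or Atp7b-/- replicates 2 (-0.42) or 4 (-0.42), and when all its probe sets were averaged (-0.14). Fads1, the partner desaturase, differed by -0.12 (95% interval -0.32 to 0.07), and Elovl6, which turns palmitate into stearate, by 0.12 (-0.45 to 0.69).

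Of 2 stearoyl-CoA desaturases, Scd2 alone was called, in untreated Atp7b-/- against wild type, where 24.6% of all genes were. Scd1, the main desaturase of liver, was at 14.34, 14.03, 14.14 and 14.32 in the wild type arrays, 14.19, 14.42, 14.47 and 14.32 in the untreated mutants and 14.15, 14.14, 14.28 and 14.40 in the zinc-treated ones. Its change of 0.15 did not pass, at levels near the highest of any probe set (15.2). Its other, dimmer probe set differed by 0.34 without zinc and by 0.12 with it. Scd2, the form more prominent outside adult liver, was at 6.05, 6.48, 6.33 and 6.77 in the wild type arrays, 7.74, 7.65, 7.42 and 6.95 in the untreated mutants and 6.78, 7.71, 6.77 and 7.75 in the zinc-treated ones. Scd2 rose by 1.03 (SE 0.25, adjusted p = 0.00854), and with zinc its difference from wild type was 0.84 (adjusted p = 0.0559), with the lowest zinc-treated arrays at the level of the highest wild type one. As the mean of its 3 probe sets Scd2 rose by 0.47. Whether Scd1 and Scd2 changed by unequal amounts was not tested.

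**Figure D3:**
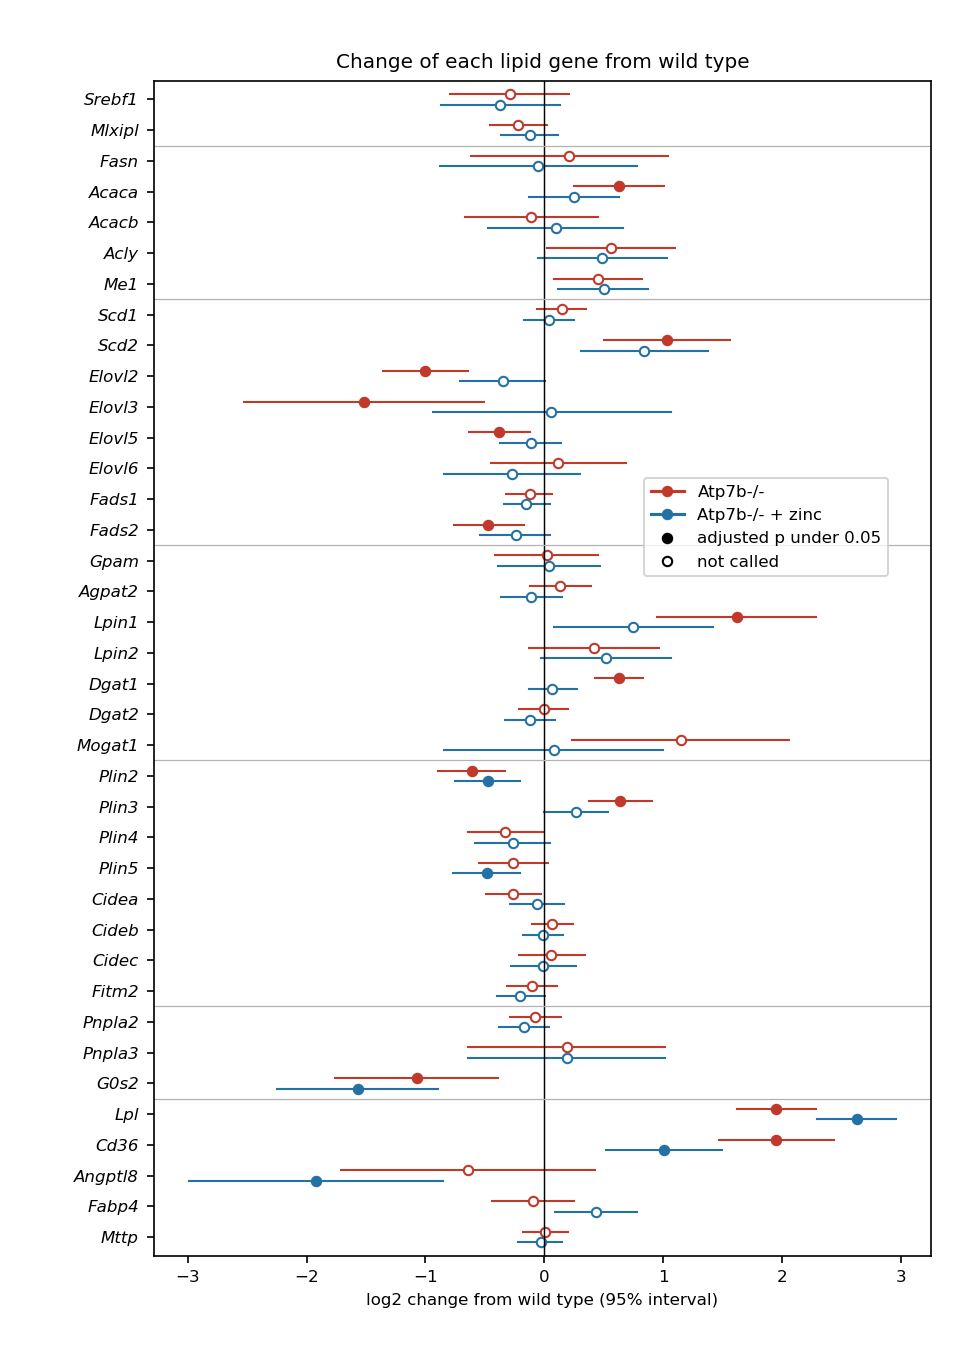
Log2 change from wild type of each of the 38 lipid genes in untreated (red) and zinc-treated (blue) Atp7b-/- liver, with 95% intervals from limma; filled points passed an adjusted p under 0.05. Lpl and Cd36 lie farthest to the right in red at 1.95 each, and Elovl2, Elovl3, Elovl5 and Fads2 have filled red points and open blue ones.

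Triglyceride assembly had 2 risers among 7 genes without zinc (28.6%, near the 24.6% of all genes called) and 0 against wild type with it (7.62% of all genes). Lpin1, the phosphatidate phosphatase that also acts as a nuclear coactivator, was at 7.22, 8.07, 8.36 and 8.67 in the wild type arrays, 10.28, 9.11, 9.92 and 9.50 in the untreated mutants and 8.54, 9.29, 8.40 and 9.10 in the zinc-treated ones. It rose by 1.62 (SE 0.31, adjusted p = 0.002), or 3.07-fold, with no overlap, and its other probe set differed by 1.31. With zinc the mean of Lpin1 lay between those of the other groups, and the arrays overlapped both. Lpin1 then differed by -0.87 from untreated (adjusted p = 0.117) and by 0.75 from wild type (adjusted p = 0.174). Lpin2, a relative with the same activity, differed by 0.42 (adjusted p = 0.241).

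Dgat1 and Dgat2 each catalyse the last step to triglyceride. Dgat1 was at 8.59, 8.48, 8.32 and 8.64 in the wild type arrays, 9.17, 8.98, 9.12 and 9.27 in the untreated mutants and 8.64, 8.54, 8.42 and 8.71 in the zinc-treated ones. The untreated Atp7b-/- arrays stood above both other groups without overlap. Dgat1 rose by 0.63 (SE 0.09, adjusted p = 0.000329) and was -0.56 from that level with zinc (adjusted p = 0.00355). These values rest on a probe set of the _s kind, which like the _x kind may bind transcripts of other genes, and the other, dimmer one differed by -0.28 and -0.04. The rise lost its call when all its probe sets were averaged (0.17) or without _x, _s and _a probe sets (-0.28), and the zinc difference without _x, _s and _a probe sets (-0.04) or without both zinc-treated replicates 2 and 3 (-0.46). Dgat2 was at 12.55, 12.41, 12.56 and 12.45 in the wild type arrays, 12.32, 12.55, 12.59 and 12.49 in the untreated mutants and 12.58, 12.20, 12.24 and 12.47 in the zinc-treated ones. The groups overlapped, and the 95% interval of its change without zinc was -0.21 to 0.20.

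Gpam, the mitochondrial acyltransferase that starts glycerolipid synthesis, was at 12.03, 11.94, 12.45 and 12.49 in the wild type arrays, 11.60, 12.40, 12.61 and 12.38 in the untreated mutants and 12.20, 12.18, 12.10 and 12.59 in the zinc-treated ones. Its change was 0.02 (95% interval -0.41 to 0.45), and that of Agpat2, the next acyltransferase, 0.13. Mogat1, which makes diacylglycerol from monoacylglycerol, was at 5.54, 5.34, 5.64 and 5.34 in the wild type arrays, 8.30, 5.87, 5.52 and 6.77 in the untreated mutants and 5.54, 5.63, 5.62 and 5.40 in the zinc-treated ones. Among untreated arrays 1 and 4 were high and 2 and 3 were near the wild type range, and the mean change of 1.15 did not pass (adjusted p = 0.065).

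**Figure D4:**
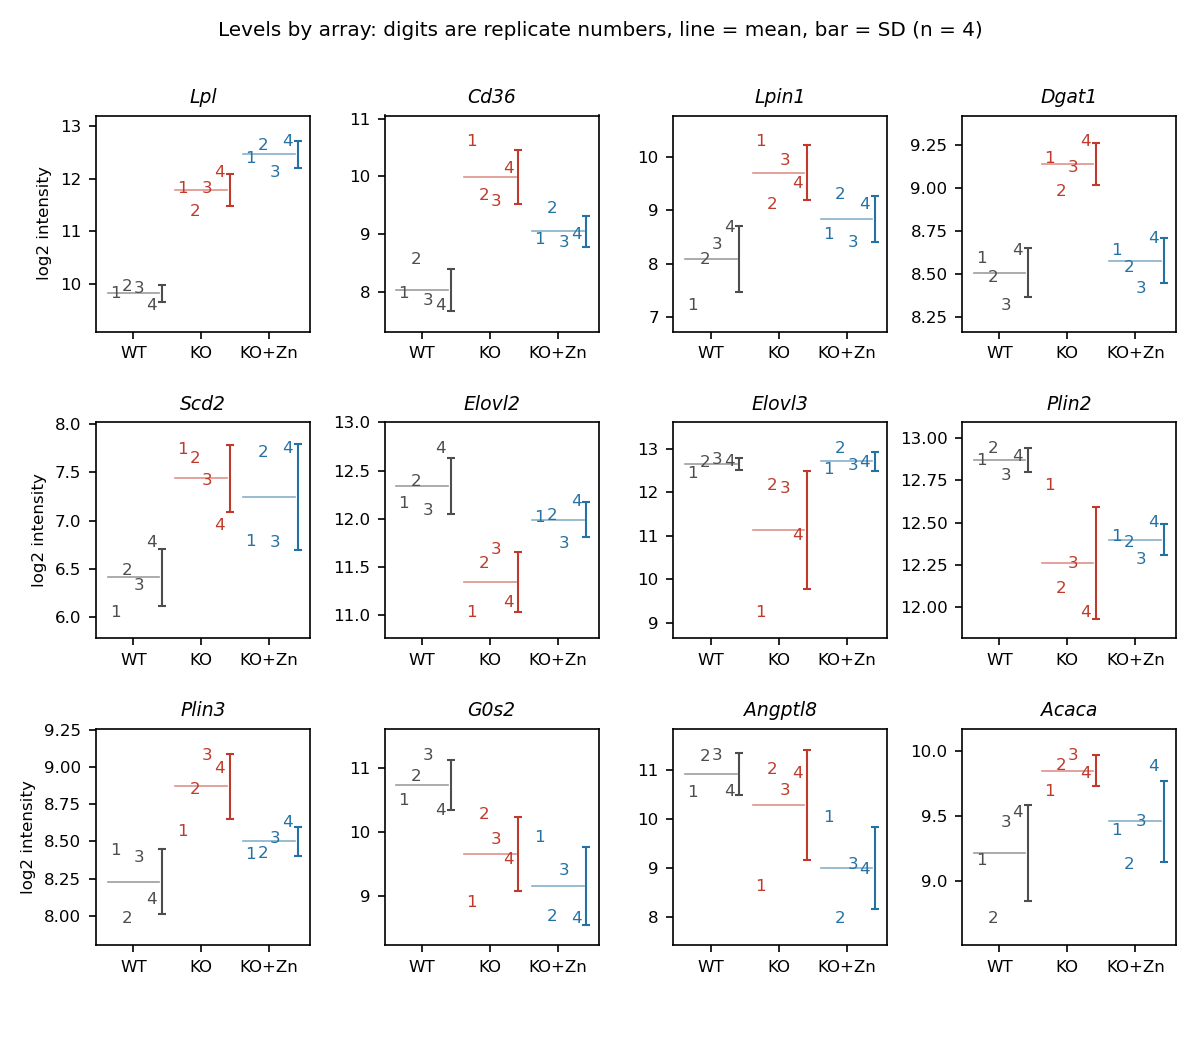
Log2 intensity of 12 lipid genes called in at least 1 comparison, by group (WT, wild type; KO, untreated Atp7b-/-; KO+Zn, zinc-treated Atp7b-/-), with digits for replicate numbers, lines for group means and bars for the SD (n = 4); each panel has its own axis. Lpl rises from 9.83 through 11.78 to 12.46 over the groups, whereas Dgat1 is high only in untreated Atp7b-/- (9.14 against 8.51 and 8.58).

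Among 8 droplet proteins 1 rose and 1 fell without zinc (2 of 8, near the 24.6% of all genes called). Plin2, the main droplet coat of hepatocytes, was at 12.87, 12.94, 12.78 and 12.89 in the wild type arrays, 12.72, 12.11, 12.26 and 11.97 in the untreated mutants and 12.42, 12.38, 12.28 and 12.50 in the zinc-treated ones. All mutant arrays lay below all wild type arrays. Plin2 fell by 1.52-fold without zinc (-0.61, SE 0.13, adjusted p = 0.00403) and was -0.47 from wild type with it (adjusted p = 0.0401). The call with zinc was lost without wild type replicates 1 (-0.47), 2 (-0.45), 3 (-0.50) or 4 (-0.47), Atp7b-/- replicate 3 (-0.47) or zinc-treated replicates 1 (-0.48), 2 (-0.47), 3 (-0.44) or 4 (-0.51). It was also lost after quantile normalization (-0.47), with the replicate number as a block (-0.47) or without both zinc-treated replicates 2 and 3 (-0.41).

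Plin3, a coat protein found on new droplets, went the other way, at 8.44, 7.98, 8.39 and 8.11 in the wild type arrays, 8.57, 8.85, 9.08 and 8.99 in the untreated mutants and 8.41, 8.42, 8.52 and 8.63 in the zinc-treated ones. It rose by 0.64 (SE 0.12, adjusted p = 0.0021), and the difference with zinc from untreated Atp7b-/- was -0.37 (adjusted p = 0.0933). Plin5, which ties droplets to mitochondria, was at 10.61, 10.30, 10.32 and 10.18 in the wild type arrays, 10.18, 10.24, 9.98 and 9.97 in the untreated mutants and 10.09, 9.78, 9.52 and 10.09 in the zinc-treated ones. It was called with zinc (-0.48 from wild type, adjusted p = 0.0422; untreated -0.26, adjusted p = 0.168), and zinc-treated differed from untreated by -0.22 (adjusted p = 0.363). That call, too, was lost without wild type replicates 1 (-0.40), 2 (-0.50) or 3 (-0.49), Atp7b-/- replicates 2 (-0.48), 3 (-0.48) or 4 (-0.48) or zinc-treated replicates 2 (-0.45) or 3 (-0.37). Other settings that ended it were when all its probe sets were averaged (-0.48), without _x, _s and _a probe sets (-0.48), with array weights (-0.43), with only the 2 groups in the fit (-0.48) or without both zinc-treated replicates 2 and 3 (-0.26).

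Cidec, which fuses droplets and marks fat-laden liver, was at 4.31, 4.00, 4.24 and 4.01 in the wild type arrays, 4.57, 4.13, 4.16 and 3.96 in the untreated mutants and 3.94, 4.32, 4.14 and 4.13 in the zinc-treated ones, close to the lower quartile of each array (4.13 to 4.29). Cidea, its relative, was at 4.10 to 4.67, and Plin4, a droplet coat of adipocytes, at 4.53 to 5.34, below every array median (5.63 to 5.71). At such levels a change may go unread. Cideb, the form of hepatocytes, changed by 0.07 (95% interval -0.10 to 0.24), and Fitm2, needed for droplet budding, by -0.10 (-0.31 to 0.11).

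Of 3 genes of lipolysis, 1 was called without zinc, the inhibitor G0s2, where 24.6% of all genes were. With zinc G0s2 alone was called against wild type, where 7.62% of all genes were. Neither Pnpla2 nor Pnpla3 was called in any comparison. Pnpla2, the main triglyceride lipase of droplets, was at 8.55, 8.39, 8.29 and 8.48 in the wild type arrays, 8.63, 8.17, 8.26 and 8.35 in the untreated mutants and 8.28, 8.28, 8.15 and 8.32 in the zinc-treated ones. Its change was -0.08 (95% interval -0.29 to 0.14). G0s2, which binds and blocks that lipase, was at 10.49, 10.87, 11.20 and 10.34 in the wild type arrays, 8.90, 10.27, 9.88 and 9.57 in the untreated mutants and 9.91, 8.68, 9.39 and 8.64 in the zinc-treated ones. All 8 mutant arrays lay below every wild type array, and the untreated and zinc-treated ranges overlapped. G0s2 fell by 2.1-fold without zinc (-1.07, SE 0.32, adjusted p = 0.0252) and was 2.97-fold lower than wild type with it (-1.57, SE 0.32, adjusted p = 0.00784). The fall without zinc lost its call without wild type replicates 2 (-1.03) or 3 (-0.91) or Atp7b-/- replicates 1 (-0.82) or 4 (-1.05), and with an intensity trend and robust variance (-1.07). The difference with zinc lost it without both zinc-treated replicates 2 and 3 (-1.45). Pnpla3, a droplet protein with a known link to fatty liver, was at 5.82, 5.60, 6.31 and 6.75 in the wild type arrays, 5.56, 6.29, 7.11 and 6.27 in the untreated mutants and 5.67, 6.19, 5.94 and 7.45 in the zinc-treated ones, with a spread in each group (SD 0.52 to 0.78) above its change of 0.19.

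A wider list held 75 genes of lipid synthesis, uptake, storage and their control, 69 of them measured. In untreated Atp7b-/- 13 were up and 14 down (39.1% called, where 24.6% of all genes, dim ones included, were). Gpat3, the acyltransferase of the endoplasmic reticulum that works in parallel with Gpam, went from 5.63 ± 0.35 to 7.32 ± 0.44 (1.69, adjusted p = 4.53e-05). Tm6sf2, needed to load lipid onto lipoproteins, rose by 1.57 and Pgd, a source of NADPH, by 1.14. Fabp5, a fatty acid carrier, changed by -1.67 and Ces1d, a carboxylesterase that mobilises stored triglyceride, by -1.30. Aacs, which activates acetoacetate for lipid synthesis, changed by -1.15 (adjusted p = 0.0495), a call lost in 14 of 22 alternatives, among them without wild type replicates 2 (-1.19), 3 (-1.06) or 4 (-1.02), Atp7b-/- replicates 1 (-0.71), 2 (-1.23) or 4 (-1.30) or zinc-treated replicates 1 (-1.15) or 2 (-1.15).

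With zinc, 6 of the 69 were higher and 7 lower than in untreated Atp7b-/- (18.8%, background 6.54%, dim genes included). Without dim genes, 1373 of 9097 genes in all were called here, a larger share than 6.54%. The wider list was not counted that way. Gpat3 was -1.35 and Pgd -0.79 from the untreated level, and both calls held in every alternative run. Fads6, a desaturase relative, was at -0.62, and at -0.42, no longer called, without zinc-treated replicates 2 and 3. Ces1d (0.95), Pparg, the receptor of fat cell formation (0.75), and Tm6sf2 (-0.70) were called too, but lost their calls in 11, 11 and 8 of the alternatives. For Ces1d the call ended without wild type replicates 1 (0.95), 2 (0.95) or 3 (0.95), Atp7b-/- replicates 1 (0.69) or 3 (0.98) or zinc-treated replicates 1 (0.90), 2 (1.05) or 4 (0.77). For Pparg it ended without wild type replicates 1 (0.75), 3 (0.75) or 4 (0.75), Atp7b-/- replicates 1 (0.54), 2 (0.77) or 4 (0.84) or zinc-treated replicates 1 (0.73), 2 (0.77) or 4 (0.60). For Tm6sf2 it ended without Atp7b-/- replicates 1 (-0.66), 2 (-0.71), 3 (-0.71) or 4 (-0.69) or zinc-treated replicates 2 (-0.60) or 3 (-0.54), and the change was -0.33 without zinc-treated replicates 2 and 3 together. Against wild type 3 were higher and 5 lower with zinc (11.6%, background 7.62%, dim genes included). Without dim genes, 1504 of 9097 genes in all were called. Tm6sf2 was 0.88 above wild type, a call kept in every alternative. Mgll, the monoacylglycerol lipase (-0.64), and Mlx, the partner of the Mlxipl protein (-0.39), were lower and called with any single array left out. Mgll was no longer called without _x, _s and _a probe sets (-0.25) or without zinc-treated replicates 2 and 3 (-0.49). Mlx was no longer called without those 2 arrays (-0.39) or as the mean of its probe sets (-0.31). Pparg (0.76), Ces1g (0.73) and the insulin receptor Insr (-0.40) lost their calls in 8, 6 and 14 alternatives. Pparg was no longer called without wild type replicates 1 (0.83), 2 (0.66), 3 (0.76) or 4 (0.78), Atp7b-/- replicate 2 (0.76) or zinc-treated replicates 1 (0.74), 2 (0.78) or 4 (0.62). Ces1g was no longer called without wild type replicates 1 (0.62) or 3 (0.64), Atp7b-/- replicate 2 (0.73) or zinc-treated replicates 1 (0.66) or 4 (0.60). Insr was no longer called without wild type replicates 1 (-0.40), 2 (-0.36) or 4 (-0.40), Atp7b-/- replicates 2 (-0.40), 3 (-0.40) or 4 (-0.40) or zinc-treated replicates 2 (-0.40), 3 (-0.29) or 4 (-0.45).

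The arrays of a group did not contribute evenly to these values. Replicate 1 of untreated Atp7b-/- held the lowest or the highest value of its group for 31 of the 38 lipid genes, lowest for 21 and highest for 10, where the other 3 held it for 16, 20 and 9. Its median absolute difference from the other 3 was 0.40, against 0.16 to 0.21 for those. Elovl3, Mogat1, Cd36, Srebf1, Fasn and Angptl8 were among the genes in which it lay outermost. This array also had the highest macrophage mean of its group (8.56) and the lowest Car3 (13.41), and the part of either in these values was not tested. Zinc-treated replicate 4 held the highest value for 22 of the 38, and replicate 3 the lowest for 16. These counts of extremes were not made over all genes, so they are not shown to be particular to the lipid genes. Zinc-treated replicates 2 and 3 together did not overlap replicates 1 and 4 for 14 of the 38 genes (36.8%), where the share over all genes was 39.9%.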

How the data were processed

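The data are log2 intensities that the authors deposited for 12 arrays, with 45101 probe sets each. Per the labels' protocols, 100 mg of liver was extracted with Trizol and an RNeasy kit. No source used here states the summarisation or normalization, and array medians were 5.63 to 5.71. Array intensities can be compressed at the dim and bright ends, which would understate changes there. Nothing was rescaled. Groups came from the sample titles.

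Of the probe sets, 34945 were listed with 1 gene, 932 with several and 9160 with none, and 64 were controls. Symbols were updated through RefSeq gene identifiers (GRCm38.p6), which 34741 of the 34945 matched.

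One limma 3.58.1 fit in R 4.3.3 over 12 arrays gave all 3 comparisons, with p-values adjusted over 18193 genes by Benjamini-Hochberg. It was tested on simulated data with independent noise and equal spread in all groups. That run says nothing about outlying arrays or transcripts of other tissue. The number of arrays limits the precision. The members and lists were chosen with earlier results of these data known, and no list was tested as such. Values in every array are given for members called in a comparison and for 14 set enzymes and regulators, of the wider list up to 6 called genes per comparison with the largest changes. Mogat1, Fabp4, Me1, Nr1h3 and Rxra are outside this rule and were added after their values were seen. The 22 alternatives comprise 12 single arrays left out and 10 other settings. One of these left out probe sets with the suffix _x, _s or _a.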

Additional observations from a re-analysis of the deposited data

Results flagged for a closer look

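Of 114 groups of 4 arrays, 38 lipid genes in 3 groups, 2 held an array whose gap to its nearest neighbour was above Dixon's critical share of the range. Chance gives about 1 such group in 20. Fabp4 in zinc-treated replicate 2 was at 8.50, where the other 3 zinc-treated arrays were at 7.77 to 7.86. Mttp in zinc-treated replicate 3 was at 11.49, where the others were at 11.69 to 11.72.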

How the results depend on the processing

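Of 23 gene results called, 8 kept their direction and call in all 22 alternatives: Cd36, Elovl2, Lpin1, Lpl, Plin2, Plin3 and Scd2 in untreated Atp7b-/- against wild type, and Lpl with zinc against wild type. The other 15 lost the call at least once, in 79 of 506 gene results over all alternatives, 54 of them with 1 array left out. The change of Dgat1 turned to -0.28 without _x, _s and _a probe sets, where another probe set stands for the gene. Leaving out single arrays gave 9 to 13 called lipid genes in untreated Atp7b-/- against wild type, 1 to 6 with zinc against untreated, and 2 to 6 with zinc against wild type. Without zinc-treated replicates 2 and 3, where fewer samples remain, the latter counts were 1 and 1, and array weights gave 8 against untreated. No median of the lipid genes moved beyond the spread between arrays. Over all genes, zinc against untreated called 1190, and 1861 with array weights, 689 without Atp7b-/- replicate 4 and 614 without zinc-treated replicates 2 and 3. Zinc against wild type called 1386, and 699 without those arrays. Of called genes in zinc against untreated, 26.0% were higher, and 39.8% after quantile normalization. With the replicate number as a block, the 3 comparisons called 13, 6 and 4 lipid genes. The block ended the calls of Angptl8 and Plin2 with zinc against wild type. Deviations of same-numbered arrays correlated at -0.061 to 0.176, -0.078 to 0.078 and -0.13 to 0.237, above 0.1 for 2, 0 and 3 of 4 pairs, and 2, 1 and 2 of 4 arrays correlated best with their own number. As not every pair was above 0.1, the numbers were not taken as pairs. Signals near the lower quartile (Cidea, Cidec) limit what the arrays can show.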

Other observations

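Some lipid genes were called under an alternative and not as reported. In untreated Atp7b-/- against wild type these were Acly (0.60), Cidea (-0.35), Mogat1 (1.40 to 1.51), Plin4 (-0.45) and Me1 (0.52 to 1.09 in 6 alternatives). With zinc against untreated they were Elovl3 (0.96 to 1.93 in 6), Fabp4 (0.53 to 0.58 in 4), Angptl8 (-1.83 and -1.73), Plin3 (-0.47 and -0.43) and Agpat2 (-0.36). With zinc against wild type they were Scd2 (0.84 to 1.00 in 6) and Me1 (0.76).

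A dim probe set of Acly, the citrate lyase, that can bind related transcripts was at 4.94 in wild type, 6.60 in untreated Atp7b-/- and 5.44 with zinc, a difference of 1.65 without zinc, while the 3 bright probe sets of the gene differed by 0.45 to 0.58. In untreated Atp7b-/- replicate 1 this probe set was at 5.27 and in the other 3 arrays at 6.87 to 7.19. Tek, an endothelial receptor kinase on the marker list, rose by 1.54 in untreated Atp7b-/- (adjusted p = 0.000204), while Lyve1 and Pecam1 changed by -0.79 and -0.38 and the other 5 endothelial markers did not pass.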
